A study of Mus musculus with 6 samples.

Results

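The cytosolic ribosomal protein genes encode the proteins of the ribosomes that translate nuclear messenger RNA. They were taken here as every protein-coding gene of the deposited table whose symbol follows the RPL, RPS or RPLP naming pattern, with pseudogenes and the RPS6K kinases left out. The rule found 55 members among 4195 listed genes, 37 of the large subunit and 18 of the small subunit. The libraries came from KYSE30, an established human line of esophageal squamous cell carcinoma. Stimulated cells received 100 uM acetylcholine (ACh) for 4 h and Control cells were collected at the same time, with 3 libraries per group. Both groups are labelled as wild type and were grown in serum-containing medium, and the labels do not say what the Control cells received in place of ACh. All results therefore concern a single cell line at a single time and dose. The values are normalised read counts, which the authors made by dividing each library by 1 factor.

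A cytosolic ribosome has a large subunit, which joins amino acids and sends the growing protein out through a tunnel, and a small subunit, which reads the messenger RNA. Most of their proteins are present in 1 copy per ribosome, and their messenger RNAs are among the most abundant in dividing cells. These messages start with a terminal oligopyrimidine (TOP) tract, through which the growth-regulating kinase mTORC1 and the protein LARP1 control their translation and stability as a group. Acetylcholine acts on nicotinic channels and on muscarinic G protein-coupled receptors, which are found on many epithelial cells as well as on neurons and muscle.

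Of 80 canonical ribosomal protein symbols, 54 had a row as members. The remaining member, RPL39L, is a paralogue of RPL39. A further 2 canonical genes were listed but do not follow the naming pattern, among them FAU, which encodes a ribosomal protein fused to a ubiquitin-like protein. The other 24 had no row, 10 of the large subunit (RPL4, RPL5, RPL7, RPL10A, RPL14, RPL22, RPL27, RPL32, RPL36A and RPL39) and 14 of the small subunit (among them RPSA, RPS3A, RPS4X, RPS4Y1, RPS7, RPS10, RPS13, RPS18, RPS24, RPS26, RPS27, RPS27A and RPS29). The table lists only genes with an unadjusted p under 0.05 in the authors' own comparison, so these 24 have no value here, and the members had already passed a filter for a difference between the groups.

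Over the whole table, ACh libraries held 10519515 to 10681118 normalised reads and Control libraries 11097307 to 11468978. How deeply each library was sequenced is unknown. Of 18 squamous markers 9 were listed, TP63 among them, and their summed level was 100033 to 101266 in ACh libraries and 101181 to 104686 in Control libraries. Of the fibroblast, immune and endothelial markers 1 gene of 9, 1 of 9 and 1 of 7 was listed, and the others had no row. COL1A1 lay between 133 and 147 in ACh libraries and between 146 and 193 in Control libraries. LAPTM5 lay between 31.1 and 48.2 in ACh libraries and between 17.7 and 21.3 in Control libraries, and EGFL7 between 818 and 970 in ACh libraries and between 1052 and 1081 in Control libraries. Fewer cells of a type and less RNA per cell cannot be told apart in such bulk libraries. The labels do not say that replicates were separate cultures, so p-values measure the spread between these libraries, which may be technical.

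Most listed ribosomal protein genes were slightly lower in ACh cells. A call needed an adjusted p under 0.05 both from limma and in the authors' deposited table, which 48 of the 55 members and 63.8% of all listed genes had. Limma alone called 99.6% of the table, because it was selected by p. Of the members 43 fell and 5 rose, or 78.2% and 9.09%, while of all listed genes 35.0% fell and 28.8% rose. With libraries scaled to equal totals over the listed genes, 30 members fell and 5 rose. Over all listed genes 990 then fell and 1207 rose, against 1470 and 1207 before the scaling. The authors' adjusted p was not recomputed, so the scaling could remove falls but could hardly add rises. Without the scaling, the remaining 7 members did not pass both. The mean was lower in ACh for 49 members, against 51.7% of all listed genes. The median log2 fold change, ACh over Control, was -0.20 over the members and -0.10 over all listed genes. All ACh libraries lay below all Control libraries for 48 members, against 48.3% of all listed genes. They lay above for 3 members (RPL21, RPL23 and RPL9), against 44.6% of all listed genes, and the groups overlapped for the other 4 (RPL10, RPL34, RPS12 and RPS15A). The changes were small: RPS23 alone differed by at least 1.5-fold, 19 members fell by between 0.25 and 0.5 on the log2 scale and 22 fell by under 0.25.

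**Figure D1:**
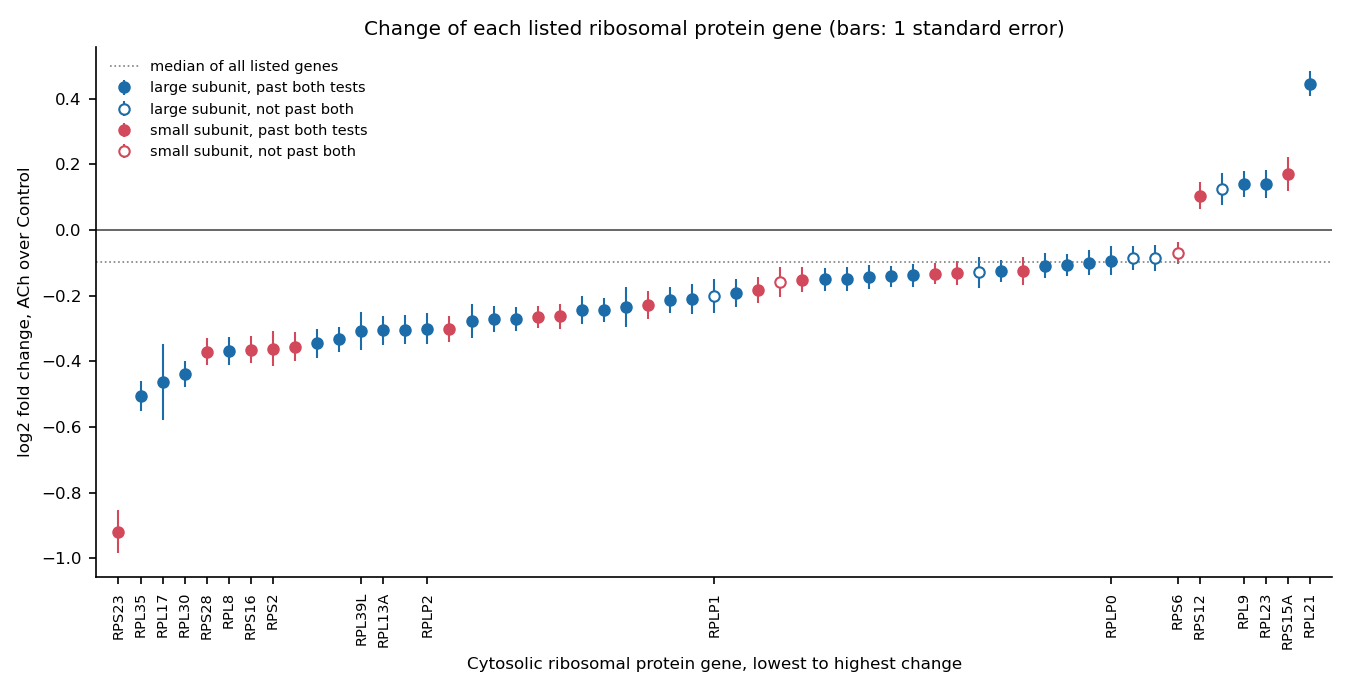
The log2 fold change of each of the 55 members (vertical axis, ACh over Control, log2 of normalised count + 1) is plotted from lowest to highest, with bars of 1 standard error. Only members described with values in every library carry a name on the horizontal axis. Filled points passed both tests and open points did not. RPS23 at -0.92 and RPL21 at 0.45 stand at the ends of a run of changes that mostly lie below the median of all listed genes, drawn as a dotted line.

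RPS23 showed the lowest fold change of any member. By mean level it ranked 52 of the 55 members, counted from the highest, and its low pseudogene copy RPS23P8 lay in the opposite direction. RPS23 encodes a small-subunit protein of the decoding centre, where codon and anticodon are matched. Its normalised count was 1412, 1429 and 1423 in the ACh libraries, against 2264, 3001 and 2856 in the Control libraries. The ACh values were nearly equal and all lay below the Control values, of which replicate 1 was the lowest. The means were 1422 ± 8.51 in ACh and 2707 ± 390 in Control (SD, n = 3 each). The log2 fold change was -0.92 with a standard error of 0.07 (limma, Benjamini-Hochberg adjusted p = 3.92e-09), and the authors' deposited table gave an adjusted p of 2.58e-11. The gene (ENSG00000186468) lies on chromosome 5 at 82273358 to 82278577, on the reverse strand, in the coordinates of the table, whose build is not given in the sources used here.

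The other listed members grouped here along the messenger RNA path of the small subunit also fell, while genes without a row have no value. Counting RPS23, 5 of 5 listed members at the decoding centre and in the messenger RNA channel fell (RPS2, RPS3, RPS9, RPS15 and RPS23). Their median log2 fold change was -0.30. Of all members 78.2% fell, and of all listed genes 35.0%. This group and the structural groups below were drawn after the values had been seen. RPS2, a protein at the entry of the messenger RNA channel, had the highest mean of all members. It had 46776, 48028 and 43834 in the ACh libraries, against 56046, 64323 and 57937 in the Control libraries. The groups did not overlap, and Control replicate 2 was the highest. Its log2 fold change was -0.36 (standard error 0.05, limma adjusted p = 2.17e-05). RPS3 (-0.23), RPS9 (-0.26) and RPS15 (-0.30), also of this channel, had smaller log2 fold changes.

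On the side where messenger RNA leaves the small subunit, and on its platform, 4 of 4 listed members fell, against 78.2% of all members. Among them were RPS14 (-0.18), RPS21 (-0.26) and RPS28 (-0.37). RPS28 had 7147, 6598 and 7709 in the ACh libraries, against 9034, 9191 and 9452 in the Control libraries, with no overlap (log2 fold change -0.37, standard error 0.04, limma adjusted p = 1.72e-06). RPS16, whose tail reaches the peptidyl-tRNA, had 14483, 14804 and 14925 in the ACh libraries, against 18036, 20472 and 18466 in the Control libraries. Its groups were also apart, with a log2 fold change of -0.36 (standard error 0.04, limma adjusted p = 1.63e-06). RPS19, a protein of the small-subunit head and the gene most often mutated in Diamond-Blackfan anaemia, fell by 0.35 on the log2 scale. RPS25 (-0.13) fell as well.

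RPS6, the small-subunit protein that S6 kinases phosphorylate downstream of mTORC1, differed little. It had 10411, 10373 and 10093 in the ACh libraries, against 10930, 11059 and 10414 in the Control libraries. The highest ACh value lay just under the lowest Control value. With a log2 fold change of -0.07, it did not pass both tests (limma adjusted p = 0.05, and 0.107 in the authors' deposited table). RPS20 (-0.16) did not pass either, because its adjusted p was 0.0793 according to the authors' deposited table.

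In the large subunit, RPL35 showed the lowest fold change. It sits at the exit of the tunnel through which nascent proteins leave. It had 19321, 19632 and 18826 in the ACh libraries, against 25650, 29769 and 26742 in the Control libraries. The groups were clearly apart, and Control replicate 2 was again the highest. The means were 19260 ± 407 in ACh and 27387 ± 2134 in Control (SD, n = 3 each), with a log2 fold change of -0.51 (standard error 0.05, limma adjusted p = 9.83e-08). All 7 listed members at the tunnel exit or in its wall fell, against 78.2% of all members and 35.0% of all listed genes. They were RPL35, RPL17, RPL39L, RPL23A (-0.30), RPL19 (-0.27), RPL26 (-0.23) and RPL31 (-0.11), with a median log2 fold change of -0.30.

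RPL17, which lines the tunnel, was the member with the lowest level. Its normalised count was 205.9, 194.6 and 148.8 in the ACh libraries, against 243.8, 262.8 and 244.9 in the Control libraries. ACh replicate 3 was well under the other ACh libraries, and the groups did not overlap. The log2 fold change of -0.46 had the largest standard error of the 8 lowest fold changes, 0.11 (limma adjusted p = 0.0015). RPL39L, a paralogue that is known for its expression in the testis and in some tumour lines, had 689.5, 742.2 and 675.0 in the ACh libraries, against 850.9, 901.0 and 853.8 in the Control libraries. The groups were apart, with a log2 fold change of -0.31 (standard error 0.06, limma adjusted p = 0.000168).

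RPL30 and RPL8 fell by similar amounts. RPL30, which faces the small subunit, had 5369, 5320 and 5543 in the ACh libraries, against 6791, 7740 and 7485 in the Control libraries. Its log2 fold change was -0.44 (standard error 0.04, limma adjusted p = 1.09e-07). RPL8, which lies close to the peptidyl transferase centre, had 32167, 33868 and 31475 in the ACh libraries, against 41359, 43319 and 41252 in the Control libraries. Its log2 fold change was -0.37 (standard error 0.04, limma adjusted p = 2.11e-06). Neither gene's groups overlapped. Around the peptidyl transferase centre and the tRNA sites of the large subunit, 3 of 4 listed members fell, against 78.2% of all members. They were RPL8, RPL11 (-0.15) and RPL3 (-0.10), while RPL10, at -0.08, did not pass both tests. Without ACh replicate 3, RPL3 lost its call.

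The P-stalk of the large subunit recruits the translation factors. Of its 4 listed members 3 fell, against 78.2% of all members, and RPLP1 did not pass both tests. RPLP0, the stalk's base, had the second highest mean of all members, with 39393, 40730 and 38851 in the ACh libraries, against 42222, 44007 and 40742 in the Control libraries. The highest ACh value lay just under the lowest Control value, and the log2 fold change was -0.09 (standard error 0.04, limma adjusted p = 0.0451). That call was lost without ACh replicate 1, ACh replicate 3, Control replicate 1 or Control replicate 2. RPLP2, a stalk protein, had 6143, 5813 and 5231 in the ACh libraries, against 6573, 7425 and 7151 in the Control libraries. It fell by 0.30 on the log2 scale (standard error 0.05, limma adjusted p = 4.05e-05), with the ACh libraries all below the Control libraries. Its partner RPLP1 had 26857, 25752 and 22940 in the ACh libraries, against 27491, 30663 and 28584 in the Control libraries. Its groups did not overlap, and its log2 fold change was -0.20 (limma adjusted p = 0.00171), but the authors' deposited table had it at an adjusted p of 0.0563. RPL12, at the stalk's base, fell by 0.15.

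RPL13A, known also for a role outside the ribosome in silencing inflammatory transcripts, had 34995, 35724 and 33987 in the ACh libraries, against 41924, 45467 and 42058 in the Control libraries. It was the member with the third highest mean, its groups did not overlap, and it fell by 0.31 on the log2 scale (standard error 0.04, limma adjusted p = 1.73e-05). Further large-subunit members that fell included RPL28 (-0.34), RPL41 (-0.33), RPL37 (-0.28), RPL24 (-0.24), RPL36 (-0.24), RPL13 (-0.21), RPL38 (-0.21), RPL7A (-0.19), RPL18 (-0.14), RPL27A (-0.14), RPL35A (-0.14), RPL29 (-0.13) and RPL6 (-0.11). RPL37A (-0.13) and RPL15 (-0.08) were lower in ACh without passing both tests. The structural groups above were drawn after the values had been seen and are descriptions.

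**Figure D2:**
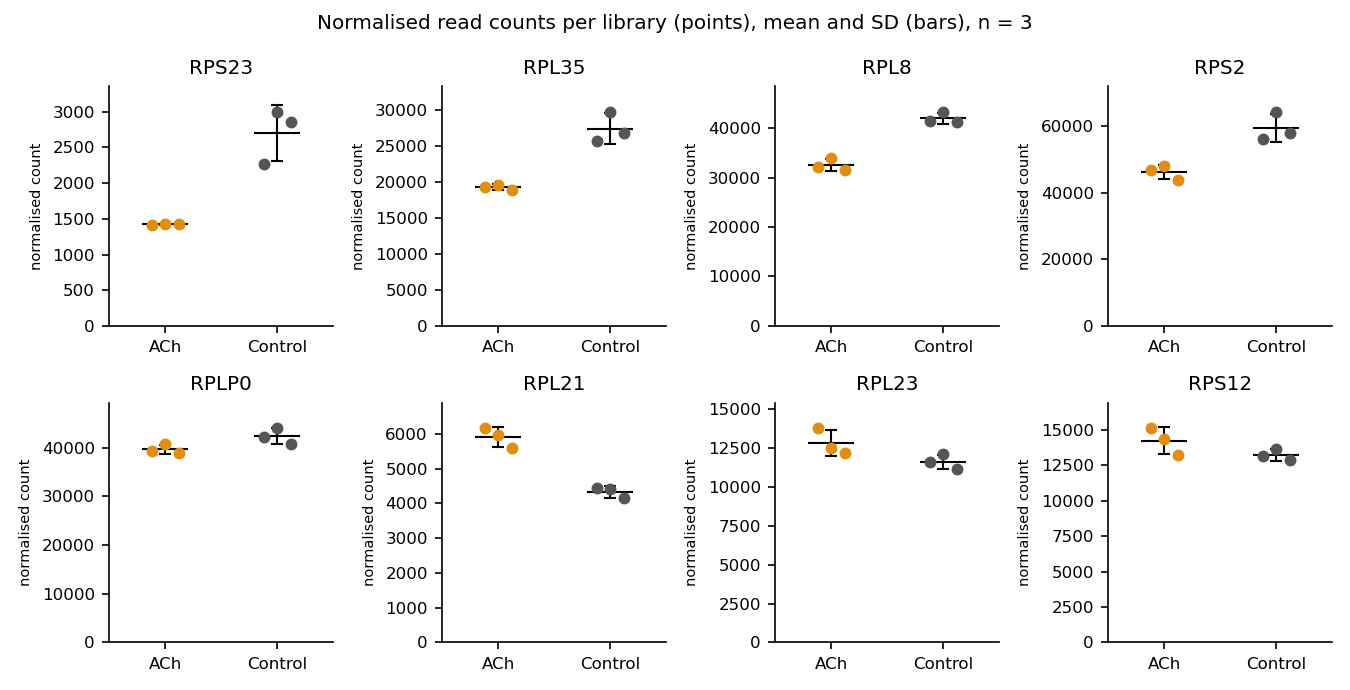
Normalised read counts (vertical axes, from 0) of 8 members are shown for each ACh and Control library as points, with the mean and SD of each group as bars. ACh values lie below Control values for RPS23, RPL35, RPL8, RPS2 and RPLP0 and above them for RPL21 and RPL23, and the groups overlap for RPS12.

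Among the 5 members that rose, RPL21 had the largest fold change. It encodes a large-subunit protein and had 6163, 5959 and 5590 in the ACh libraries, against 4454, 4400 and 4142 in the Control libraries. Every ACh library lay above every Control library. The means were 5904 ± 290 in ACh and 4332 ± 167 in Control (SD, n = 3 each), with a log2 fold change of 0.45 (standard error 0.04, limma adjusted p = 4.13e-08). The authors' deposited table gave it an adjusted p of 8.27e-22. The gene lies on chromosome 13 at 27251309 to 27256691, on the forward strand, in the table's coordinates.

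The other 4 rose by less. RPL23, a large-subunit protein that can bind MDM2, had 13775, 12516 and 12172 in the ACh libraries, against 11594, 12090 and 11174 in the Control libraries (log2 fold change 0.14, standard error 0.04, limma adjusted p = 0.00452). RPL9 had 6230, 6096 and 5681 in the ACh libraries, against 5547, 5619 and 5167 in the Control libraries (0.14, standard error 0.04, limma adjusted p = 0.00283). In both genes the lowest ACh library was only slightly above the highest Control library. RPS15A, of the small subunit, had 3349, 3320 and 2907 in the ACh libraries, against 3063, 2828 and 2621 in the Control libraries (0.17, standard error 0.05, limma adjusted p = 0.00535). RPS12, in the beak of the small subunit, had 15121, 14376 and 13224 in the ACh libraries, against 13175, 13660 and 12849 in the Control libraries (0.10, standard error 0.04, limma adjusted p = 0.0204). In both of these genes ACh replicate 3 fell within the Control range, so the groups overlapped. RPL34 had 4315, 4250 and 3670 in the ACh libraries, against 3899, 3770 and 3524 in the Control libraries, and with a log2 fold change of 0.13 it did not pass both tests. Without ACh replicate 1, RPL23 and RPS12 lost their calls and 3 members rose, without ACh replicate 2, RPS12 lost its call, and without Control replicate 3, RPS12 and RPS15A lost theirs.

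Counts and medians were close between the large and the small subunit, and the difference between them was not tested. In the large subunit 29 of 37 members fell and 3 rose, with a median log2 fold change of -0.20 and a range of -0.51 to 0.45. In the small subunit 14 of 18 fell and 2 rose, with a median of -0.21 and a range of -0.92 to 0.17. Summed over members, the large subunit took 4.72%, 4.70% and 4.57% of the listed genes' counts in the ACh libraries, against 5.00%, 5.17% and 5.02% in the Control libraries. The small subunit took 2.47%, 2.46% and 2.36% in the ACh libraries, against 2.67%, 2.79% and 2.66% in the Control libraries. Both shares were lower in every ACh library than in any Control library. The ratio of the large to the small sum was 1.918 ± 0.012 in ACh and 1.873 ± 0.016 in Control (SD, n = 3 each), and the groups did not overlap. Without RPS2, the highest member, it was 2.336 ± 0.0136 in ACh and 2.328 ± 0.0184 in Control, and the groups overlapped.

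**Figure D3:**
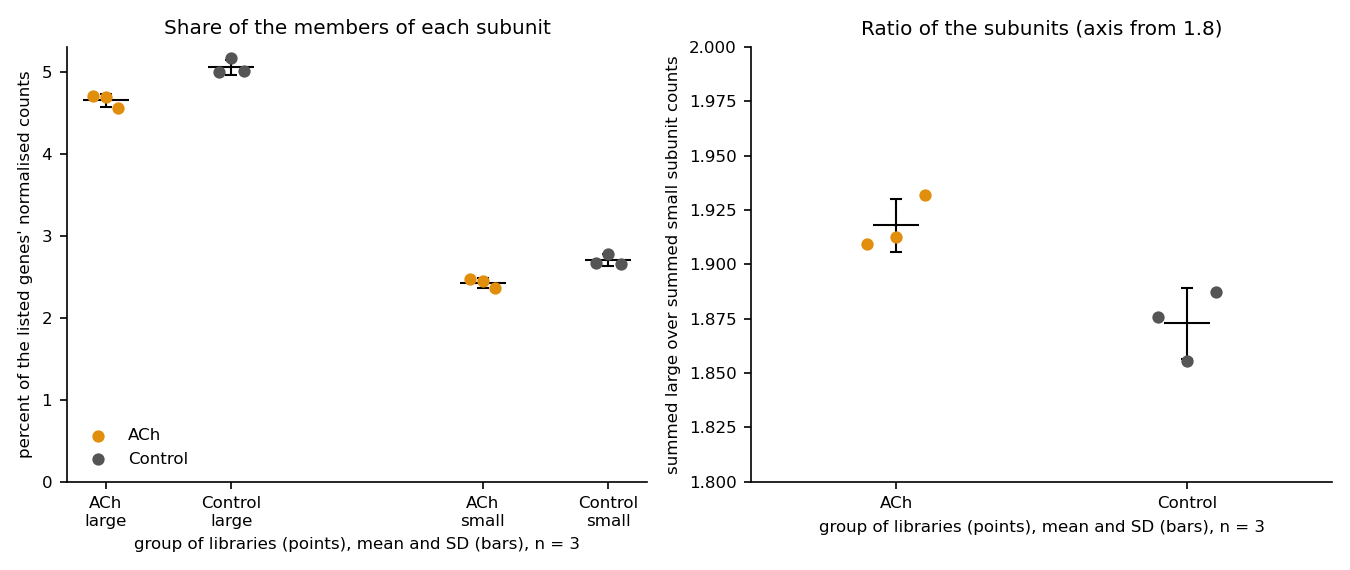
The left panel gives the summed normalised counts of the large and small subunit members as a percentage of all listed genes' counts in each library, and the right panel the ratio of the large to the small sum on an axis that does not start at 0. Points are libraries and bars the mean and SD of 3. Both shares lie lower in ACh, and the ratio is 1.918 in ACh and 1.873 in Control.

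The members were among the most abundant listed genes, with a median mean count of 12905 against 1194 over all listed genes. Their means ran from 216.8 for RPL17 to 52824 for RPS2. Per kilobase of the gene length given in the table, RPS2 was at 24631 and RPL8 at 19443 in Control, and RPL17 was lowest at 102. Such levels depend on the table's lengths, which can exceed that of the messenger RNA. Members fell at all levels of abundance. Of the 18 with the lowest means 13 fell and 3 rose, with a median log2 fold change of -0.24. Of the 18 with middle means 14 fell and 2 rose, with a median of -0.14. Of the 19 with the highest means 16 fell and 0 rose, with a median of -0.20. Spearman's rho between log2 fold change and mean count was -0.07 over the 55 members, which share their libraries. Among 219 other protein-coding genes with means at or above the members' lower quartile, 138 fell and 46 rose, with a median log2 fold change of -0.12.

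**Figure D4:**
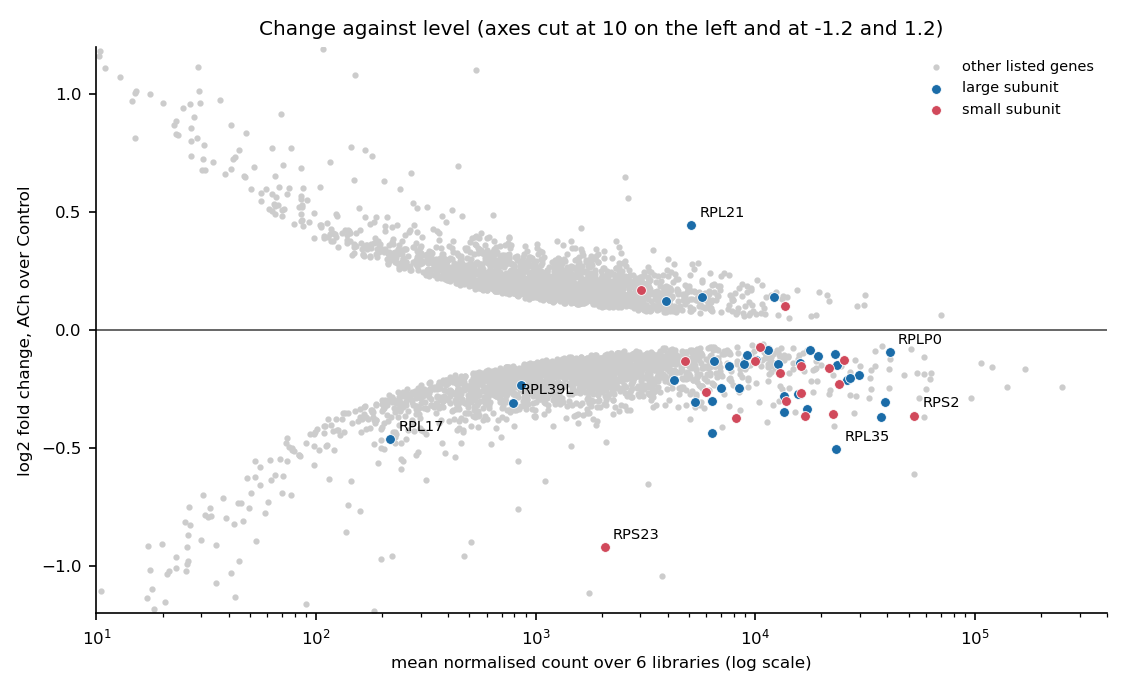
The log2 fold change of each listed gene (vertical axis, ACh over Control) is plotted against its mean normalised count over 6 libraries (horizontal axis, log scale), and genes outside the axis limits are not drawn. Members of both subunits, in colour, sit mostly to the right and below 0, between the RPL17 mean of 216.8 and the RPS2 mean of 52824. The empty band around 0 reflects that the table lists only genes past the authors' p.

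Base composition moved with the change across the table. Spearman's rho between log2 fold change and GC content was -0.76 over the 3676 listed genes with a GC value and -0.30 over the 55 members, all of which had one. GC content was taken from the like-named mouse gene. Of the 18 members with the lowest GC content 9 fell and 4 rose, with a median log2 fold change of -0.13. Of the 18 with middle values 17 fell and 1 rose (median -0.17), and of the 19 with the highest values 17 fell and 0 rose (median -0.24). After removal of the GC trend in each library, the median of the members was -0.12 and 45 of the 55, or 81.8%, were lower in ACh. Over all listed genes with a GC value the median was then -0.01 and 52.9% were lower. Of the 48 calls, 28 kept their direction and limma's threshold, 26 that fell and RPL21 and RPS12 that rose. A further 13 kept their sign alone and 7 changed sign. Over all listed genes with a GC value, 312 of 2460 calls were kept. RPS23 was then at -1.11, RPL17 at -0.65, RPL39L at -0.52, RPL35 at -0.32 and RPL21 at 0.37, while RPL23 was at -0.05, RPS15A at -0.03 and RPL9 at 0.01. The median was then -0.32 for the members of the tunnel, -0.20 for those of the decoding centre and messenger RNA channel, -0.08 for those of the exit side and platform and -0.04 for the stalk. RPL29, which fell by 0.13 before the removal, was then at 0.11. The part of base composition in the members' change was not tested further.

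**Figure D5:**
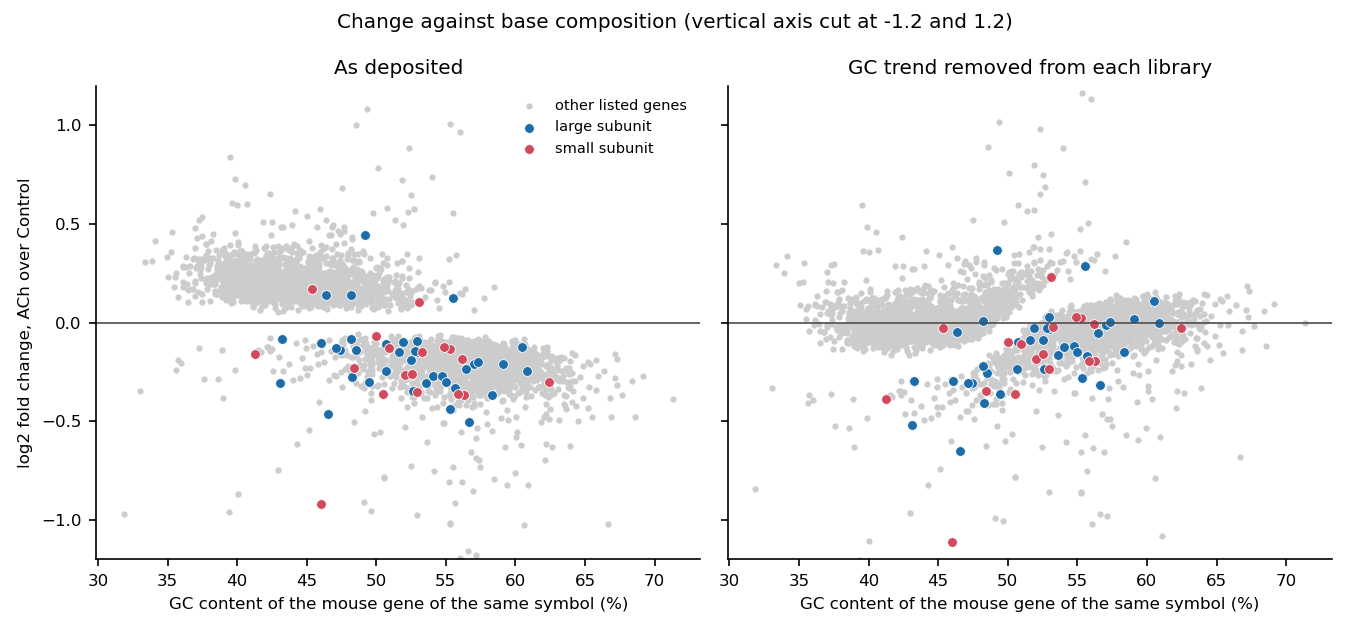
The log2 fold change of listed genes (vertical axes, ACh over Control) is plotted against the GC content in percent of the like-named mouse gene (horizontal axes), as deposited on the left and after removal of the GC trend on the right. Members are coloured by subunit. The slope of the grey cloud on the left is gone on the right, where the members' median is -0.12.

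All 12 members on chromosome 19, a gene-dense and GC-rich chromosome, fell, with a median log2 fold change of -0.29. Of all 406 listed genes on that chromosome 294 fell and 11 rose, with a median of -0.20. Among the 43 members on other chromosomes 31 fell and 5 rose, with a median of -0.16. After removal of the GC trend the median was -0.15 for the 12 members and 0.00 for all listed genes on that chromosome.

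Single libraries also moved with the members' sums. The members together summed to 767944, 762109 and 729082 in the ACh libraries, against 852673, 912684 and 851411 in the Control libraries. Control replicate 2 was the highest Control library for 46 of the 55 members, and ACh replicate 3 was the lowest ACh library for 43. Without both libraries, an alternative chosen after seeing the data, 39 members fell and 5 rose, with a median log2 fold change of -0.15. The sum of the mitochondrially encoded transcripts moved the same way, at 699304 to 761070 in ACh libraries and 807533 to 927805 in Control libraries. Of 13 such transcripts 10 were listed, and 7 fell and 0 rose. Of all listed genes 35.0% fell. Among the 219 protein-coding genes outside the family with means at or above the members' lower quartile, 138 fell and 46 rose. Those 219 include some mitochondrially encoded genes. The part of the mitochondrially encoded transcripts in the members' change was not tested.

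Ribosomal protein genes have many processed pseudogenes, near-identical copies that can share reads with them, so member and copy values are uncertain where the counting could split them. Of 27 listed ribosomal protein pseudogenes, 4 rose and 7 fell, and the other 16 did not pass both tests. Of the 19 whose parent gene is a member, 13 had the direction of that parent. RPS2P5 averaged 13029 ± 591 in ACh and 15453 ± 559 in Control (SD, n = 3 each) and fell by 0.25 on the log2 scale, and RPS2P46 fell by 0.65, as RPS2 did. RPL13AP5 fell by 0.64, in the direction of RPL13A. RPL21P16 averaged 363 ± 53.4 in ACh and 288.9 ± 29.1 in Control and rose by 0.32, in the direction of RPL21. RPL21P75, at 0.77, and RPL9P9, at 0.29, did not pass both tests. RPS28P7 rose by 0.42, opposite to RPS28. RPS23P8 averaged 31.5 ± 2.32 in ACh and 11.97 ± 3.54 in Control, opposite to RPS23, and RPL35P1 averaged 18.4 ± 1.82 in ACh and 47.5 ± 8.95 in Control. Neither of those 2 low copies passed both tests. A further 7 members overlapped a listed gene on the opposite strand, RPL30 with MATN2, RPL28 with UBE2S, RPLP2 with PIDD1, RPL36 with LONP1 and C19orf70, RPL18 with SPHK2, RPL6 with PTPN11, and RPL10 with DNASE1L1. No source says that strand was used in counting, so reads of these pairs cannot be told apart.

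FAU, outside the naming pattern, also fell. It averaged 5891 ± 248 in ACh and 6536 ± 425 in Control (SD, n = 3 each), and its log2 fold change was -0.15 (limma adjusted p = 0.00293). Of 21 other TOP transcripts 10 were listed, with a median log2 fold change of -0.14. Of these 6 fell and 3 rose, or 60% and 30%, beside 35.0% and 28.8% of all listed genes. All 10 had means above the median of all listed genes, however. Among the 219 protein-coding genes outside the family with means at or above the members' lower quartile, 138 fell and 46 rose. Those 219 include some of these transcripts. The larger share of falls therefore cannot be told apart from an effect of level. EEF1D (-0.24), a subunit of the elongation factor exchange complex, RACK1 (-0.19), a small-subunit scaffold, and the elongation factor EEF2 (-0.18) fell. CCNI (0.15), the histone chaperone NAP1L1 (0.14) and the initiation factor subunit EIF3E (0.11) rose. Without the GC trend, 2 of the 9 calls were kept, those of RACK1 and EEF1A1, while FAU was at 0.09 and EIF3E at -0.13.

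The genes that build ribosomes changed in both directions, as all listed genes did. Of 96 ribosome assembly factors 38 were listed, with a median log2 fold change of 0.13. Of these 13 rose and 11 fell, or 34.2% and 28.9%, beside 28.8% and 35.0% of all listed genes. RPF2 (0.31) and RSL24D1 (0.26), both of large-subunit assembly, and NOC3L (0.25) rose, while TSR3 (-0.28), NOP53 (-0.27) and RRP9 (-0.25) fell. After removal of the GC trend the median was -0.02, none of the 13 rises kept limma's threshold, and of the 11 falls that of NOP53 alone did. Of 19 genes of RNA polymerase I and rDNA transcription 8 were listed, of which 37.5% rose and 37.5% fell. The 3 that rose were TWISTNB (0.23), TAF1D (0.18) and RRN3 (0.17). The 3 that fell were BRF1 (-0.23), POLR2E (-0.21) and UBTF (-0.15). BRF1 is a factor of RNA polymerase III, and POLR2E is a subunit shared by the nuclear RNA polymerases. Of these 6 calls 0 were kept without the GC trend. Of 30 genes of mTORC1 and TOP regulation 9 were listed, of which 55.6% fell and 11.1% rose. MLST8 (-0.23), an mTOR subunit, AKT1S1 (-0.21), an mTORC1 inhibitor, and EIF4EBP1 (-0.18), a translational repressor, were among the 5 that fell, and LARP4 (0.25), which binds poly(A) tails, rose. Without the GC trend EIF4EBP1, at -0.31, kept its call and the other 5 did not, with AKT1S1 at 0.05. Of 13 genes of the p53 response to ribosome stress 1 was listed, and it fell (BAX at -0.24), but was at 0.05 after the removal. Differences between these lists and the members were not tested.

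The proteins of the mitochondrial ribosome are encoded by a separate family of nuclear genes. Of 30 listed, 15 fell and 1 rose, and the other 14 did not pass both tests, with a median log2 fold change of -0.18 beside -0.20 for the cytosolic family. The medians without the GC trend were -0.03 for the mitochondrial and -0.12 for the cytosolic family. Their median count was 1178 in ACh and 1380 in Control, against 12083 in ACh and 13294 in Control for the cytosolic family. A lower level makes it harder to pass the tests, so the shares of calls in the families cannot be compared directly.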

How the data were processed

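RNA-seq libraries of 3 ACh and 3 Control samples were analysed from the authors' deposited table. The values are a signal, normalised read counts that the authors made by dividing each library by 1 factor, as judged from the values, each of which is an integer times a library's own step (tolerance 0.1 of a step). Per the file headers, the table also carries log2 fold changes and p-values by the authors. Bowtie 0.12.2, mm8 and mm10 stand in the submitters' processing notes, and the labels name mouse, but 4183 of 4195 gene IDs are human Ensembl IDs. Which human build and counter were used is not given in the sources. Depth is unknown.

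Groups came from the labels. limma 3.58.1 (limma-trend, R 4.3.3) was fitted to log2(value + 1) of all 4195 genes with a group term alone, and p-values were adjusted by Benjamini-Hochberg (threshold 0.05). No low-value filter was applied, so all 55 members were tested. A fold change is a difference of group means on this scale, which understates low genes. The table was selected by p, and limma alone called 99.6% of it, so "rose" and "fell" also needed the authors' adjusted p under 0.05. Both rest on the same libraries. The authors' adjusted p was exactly 1 for 234 genes of low mean (at most 78.0), which could not pass. The fit was also run on simulated data in which most genes did not differ between the groups. The real table was selected by p, so that run says little about the calls here.

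The members and the lists were chosen with earlier results of these data known. Members named with values were the 8 lowest and all the risen fold changes among calls, the 3 highest means, the stalk proteins, RPS6, the paralogue, and up to 3 genes per direction of each list. Most remaining members are given by fold change, and a few genes are not reported here by name. GC content came from the like-named mouse gene's longest coding transcript (GENCODE M21), for 3676 of 4195 genes (87.6%). Its trend was removed per library by local regression (span 0.3). Other alternatives were a pseudocount of 0.1, leaving out genes below the lower quartile of means, equal totals, a replicate block, each library left out, adjustment over the 11193 tests implied by the authors' adjusted p, and protein-coding nuclear genes. Tables and figures were made in Python 3.11.15 with Matplotlib 3.10.9, SciPy 1.17.1, pandas 2.3.3 and NumPy 2.4.6.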

Additional observations from a re-analysis of the deposited data

How the results depend on the processing

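The members' median log2 fold change stayed negative under every alternative run. It was -0.12 with equal totals over the listed genes, which shifted the median of all listed genes by 0.08, -0.12 with the GC trend removed and -0.15 without ACh replicate 3 and Control replicate 2. The large subunit gave the same 3 values, and the small subunit -0.13, -0.13 and -0.14. With the GC trend removed 3 members were higher and 26 lower past both thresholds. Among the 3 was RPL29, at 0.11, for which the authors' adjusted p belongs to a fall. With equal totals 5 were higher and 30 lower. Leaving out each library in turn gave 3 to 5 higher and 41 to 43 lower, and kept 45 to 47 of the 48 calls. Over all listed genes it kept 2647 to 2668 of 2677 calls. The authors' adjusted p was not recomputed in any alternative, so a call could be lost only through limma. The counts with a library left out therefore say little about stability. Equal totals kept 35 of the members' 48 calls, and removal of the GC trend kept 28 of 48. With each library left out in turn, the median log2 fold change ran from -0.23 to -0.16 over all members and the large subunit. Over the small subunit it ran from -0.24 to -0.17. Signs turned with the GC trend removed for RPL23 (-0.049), RPS15A (-0.028), RPLP0 (0.026) and RPLP1 (0.0039), and with equal totals for RPS6 (0.011). RPLP0 lost its call with equal totals, over 11193 tests, and without ACh replicate 1, ACh replicate 3, Control replicate 1 or Control replicate 2. RPS12 also lost its call over 11193 tests, which left 4 higher and 42 lower, and the cause of these losses was not tested. Over named members and alternatives, 246 values kept direction and side of the threshold, 14 lost the threshold and 5 turned sign.

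Samples share only replicate numbers: deviations of same-numbered libraries correlated at 0.082, 0.056 and 0.047. With the number as a replicate block the counts were 5 higher and 43 lower. Of the members' calls 48 of 48 were kept, and over all listed genes 2677 of 2677. A count test with edgeR had been planned and was not run, because the deposited values are not counts.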
